A study of Mus musculus with 20 samples.

Results

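The lines compared here are control lines of NMuMG, an epithelial cell line from mouse mammary gland, each present in 2 libraries that carry an additional vector and in 2 that do not. Empty vector libraries came from NMuMG cells labelled as overexpressing an empty vector, and were set against NMuMG libraries from wild-type cells (the NMuMG pair). E1KD SCR libraries came from NMuMG cells silenced for Pcbp1, the gene of hnRNP E1, that also expressed a scrambled shRNA, and were set against E1KD libraries from silenced cells without it (the E1KD pair). By the study's methods, shRNAs were delivered with lentiviral vectors, and whether a line is a clone or a pool is not stated. The libraries were chosen by the labels, 8 of the 20 libraries of the series, and no library belongs to both pairs. Each cell line is labelled as total RNA from Trizol, grown in DMEM with serum, and E1KD and E1KD SCR share the shRNA to hnRNP E1. An added vector here means one beyond that shRNA, so libraries called without an added vector can still carry the shRNA. How RNA was selected or depleted before sequencing is not given in the sources used here, and neither is the strand setting of the counting. The lines with an added vector and the lines without one also differ in the kind of library described below, so within these pairs the vector and the library kind cannot be told apart. Nothing says that replicates came from separate cultures, so p-values measure only the spread between these libraries.

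Most messenger RNAs end in a poly(A) tail, added after a cleavage that the AAUAAA signal directs, and a library made from tailed RNA holds little of what has no tail. Replication-dependent histone mRNAs, made in S phase, end instead at a stem-loop, and the RNAs of RNA polymerase III, the spliceosomal snRNAs and the snoRNAs are also released without a long tail. Mitochondrial mRNAs carry short tails, whereas mitochondrial ribosomal RNAs carry few or none. Processed pseudogenes are copies of mRNAs pasted back into the genome, and reads of the mRNA can be assigned to them.

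Motifs in the annotated transcripts show these classes. The sequences are from GENCODE transcripts of build GRCm38, written 5′ to 3′ as the transcript reads, with coordinates of the bases shown. In the first group the capitals mark the histone stem-loop, which lies in the 3′ UTR of linker histone genes.
Hist1h1c, chr13:23739505-23739534, plus strand: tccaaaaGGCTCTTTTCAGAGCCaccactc
Hist1h1d, chr13:23555780-23555809, plus strand: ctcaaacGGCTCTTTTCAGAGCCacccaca
Hist1h1e, chr13:23621775-23621804, minus strand: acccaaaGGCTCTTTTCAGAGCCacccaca
In the second group the capitals mark AATAAA, the DNA form of the cleavage signal, within the last 50 bases of a transcript. Hist1h1c appears in both groups, and the annotated transcript shown runs 840 bases past its stem-loop. Those shown for Hist1h1d and Hist1h1e run 4884 and 1153 bases past theirs.
Hist1h1c, chr13:23740338-23740367, plus strand: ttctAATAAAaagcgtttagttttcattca
Hist2h2be, chr3:96223709-96223738, plus strand: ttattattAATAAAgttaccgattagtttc
H2afz, chr3:137866789-137866818, plus strand: ggtggataagctcAATAAAggtcatatccc
H1f0, chr15:79030475-79030504, plus strand: aactttaaAATAAAactggaaaggaaaaaa
In the third group the capitals mark the terminal run of T at which RNA polymerase III stops.
Rn7sk, chr9:78175303-78175332, minus strand: ggcgctgcatgtggcagtctgcctttcTTT
Rny1, chr6:47788069-47788098, minus strand: cttctcactactgcacttgactagtcTTTT
Rny3, chr6:47781696-47781725, plus strand: gctcccactgcttcacttgaccagccTTTT
In the fourth group the capitals mark ACA, 3 bases before the end of H/ACA snoRNAs, most of which guide pseudouridylation.
Snora73a, chr4:132352775-132352804, minus strand: ctgaggagacaaaccatgcaggaaACAgtt
Snora73b, chr4:132352322-132352351, minus strand: ctgaggagacaaaccatgcaggaaACAaaa
Snora78, chr17:24719676-24719705, minus strand: tgggagggtgaaacccaggcccctACAttc
In the fifth group the capitals mark CTGA, the D box of C/D snoRNAs. Most of these guide ribose methylation, and some, such as U3 (Rnu3a), take part in processing of ribosomal RNA.
Snord22, chr19:8725962-8725991, plus strand: ctttgttccagaaggaactgtCTGAgggat
Snord15b, chr7:99479563-99479592, minus strand: gattgatttagaggcatttgtCTGAgaagg
Rnu3a, chr10:40258651-40258680, plus strand: tgagagggagaggacacagtCTGAgtggtt

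The letters were searched on the transcript strand of every annotated transcript of a gene. A histone stem-loop was found in 34 of 69 replication-dependent histone genes and in 9 of 21678 other protein-coding genes (0.0415%). AATAAA stood in the last 50 bases of 15 of those histone genes, of 10 of 11 histone genes listed as polyadenylated, and of 69.5% of the other protein-coding genes. ACA stood 3 bases before the end of 34 of 41 H/ACA snoRNAs and of 5.64% of all genes. CTGA stood in the last 12 bases of 86 of 99 C/D snoRNAs and of 12.1% of all genes. A final TTT was annotated for 4 of 11 RNAs of RNA polymerase III and for 6.97% of all genes. The stem-loop was searched over the whole transcript, and the other motifs only at its annotated end. The motifs can overlap one another, and a match describes the annotation, not a site in use.

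The values are CPM, counts per 1e6 reads as the authors scaled them, over 54986 annotated genes. The 8 libraries were scaled to between 50.8 and 73.9 M reads (M for 1e6), 3 reads on a gene are worth 0.0406 to 0.0591 CPM, and intervals or floors from such numbers cover counting error only. Both NMuMG libraries and the second E1KD library sum to between 567103 and 567409 CPM, and the 4 libraries with an added vector to between 773624 and 797252 CPM. E1KD replicate 1 stands apart from E1KD replicate 2, with a sum of 728645 CPM and a median log2 ratio of 0.29 over the genes tested. Pcbp1 was lower in the silenced lines within each library kind, at 287 and 312 CPM in NMuMG against 16.6 and 14.2 CPM in E1KD, and 32.3 and 32.3 CPM in Empty vector against 3.28 and 3.46 CPM in E1KD SCR. Of 10 epithelial markers, 7 passed the filter on low values, Krt8 had at least 861 CPM in every library, and Epcam was listed at 0 in all 8. Of 12 markers of immune, blood and other cells, 4 passed it, and the smooth muscle myosin Myh11, at 0 and 0 CPM in NMuMG and 1.64 and 1.64 CPM in Empty vector, was the only member called higher in both pairs. The summed CPM of these 12 genes was 1.75 and 1.62 CPM in NMuMG against 5.11 and 4.42 in Empty vector, and 3.72 and 2.35 in E1KD against 7.77 and 7.75 in E1KD SCR, and its part in the results below was not tested. In these bulk libraries, fewer cells of a type and less RNA per cell cannot be told apart.

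Genes were tested in a limma fit of log2(CPM + 1) over all 20 libraries and called at a Benjamini-Hochberg adjusted p under 0.05 and a log2 fold change of at least 1 in size. Of the 17106 genes tested, 3570 (20.9%) were called higher and 2537 (14.8%) lower in Empty vector than in NMuMG, and 2916 (17%) were called higher and 3160 (18.5%) lower in E1KD SCR than in E1KD. The same genes recurred: 2656 (15.5%) were called higher in both pairs, 2225 (13%) lower in both, and 10 in opposite directions. These 4881 genes are 79.9% of the calls of the NMuMG pair and 80.3% of those of the E1KD pair. The share of higher genes among them was 54.4%, and 38.2% when every library was scaled to an equal sum, a scaling that moved the median log2 fold change of all genes from 0.06 to -0.28 in the NMuMG pair and from -0.07 to -0.29 in the E1KD pair. Without E1KD replicate 1 the number called higher in both pairs was 3145, and without E1KD replicate 2 it was 2003.

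Most gene types that were higher with an added vector are of RNAs without poly(A) tails, and they were higher in both pairs. For 29 gene types the summed CPM of all annotated members averaged at least 1, with no filter on single genes. Of these, 9 were at least 2-fold higher in both pairs (Mt_rRNA, Mt_tRNA, miRNA, misc_RNA, ribozyme, scaRNA, sense_intronic, snRNA and snoRNA), 3 were at least 2-fold lower in both (rRNA and transcribed processed and unitary pseudogenes), and 17 were neither. Scaling to equal sums left 9 higher and made 6 lower. Of 44 sense_intronic genes tested, 8 (18.2%) were called higher in both pairs and 2 (4.55%) lower, against 15.5% and 13% of all genes. The rise of that type's sum is thus not one of most members. Sums carry no test, because permuting 2 libraries against 2 within the pairs cannot give a p under 0.0556. Mitochondrial rRNA rose from 699.9 ± 8.76 CPM in NMuMG to 168403 ± 2406 CPM in Empty vector (mean ± SD, n = 2), a ratio of 241, and from 687 ± 78.6 CPM in E1KD to 155607 ± 7650.2 CPM in E1KD SCR, a ratio of 227. The summed CPM of protein-coding genes had ratios of 1.11 and 0.955, the second 1.11 without E1KD replicate 1 and 0.840 without E1KD replicate 2. Their share of the table's sum went from 72.6% and 72.7% in NMuMG to 58.2% and 57.4% in Empty vector. The sum of lincRNAs had ratios of 1.2 and 1.21, but of 325 tested, 13 were called higher in both pairs and 60 lower, against 15.5% and 13% of all genes, and the median log2 fold change was -0.22 in each pair.

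**Figure D1:**
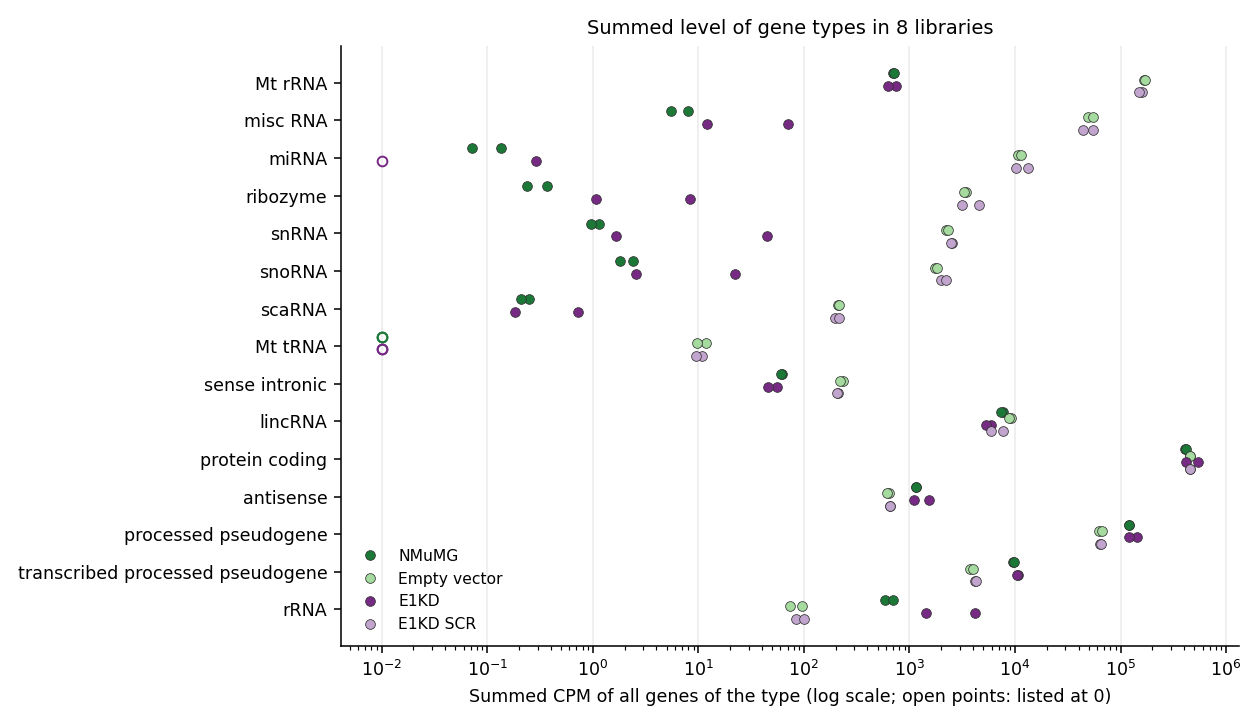
Summed CPM of all genes of 15 gene types (horizontal log axis) in the 8 libraries, 1 point a library, coloured by group. The 8 uppermost types, from Mt_rRNA to Mt_tRNA, lie far to the right in Empty vector and E1KD SCR, whereas protein-coding genes overlap and pseudogene and antisense types lie lower.

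The other 12 libraries of the series show the same 2 kinds. The libraries without an added vector are TGFβ-treated NMuMG, M1P and L1P, of which M1P and L1P are labelled as silenced for Pcbp1, like E1KD. In them, mitochondrial rRNA summed to 559.5 to 778 CPM and the replication-dependent histones to 74.3 to 136 CPM. In those with one (the Platr18 clones and the Platr18 silencing in E1KD), the sums were 120203 to 160534 CPM and 3323 to 4934 CPM. The 2 ranges do not overlap for either class.

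Among the RNAs of RNA polymerase III, the 7SL RNAs of the signal recognition particle were near 0 in the lines without an added vector and high in those with one. Rn7s1 had 2.55 and 1.38 CPM in NMuMG against 15381 and 17244 in Empty vector, and 23.7 and 3.55 in E1KD against 13975 and 17209.6 in E1KD SCR. Rn7s6 had 0.177 and 0.0754 CPM in NMuMG against 6586 and 7233 in Empty vector, and 3.82 and 0.166 in E1KD against 5837 and 7642 in E1KD SCR. Both lie apart by several orders of magnitude, and E1KD replicate 1 is the highest of the low libraries for each. Rpph1, the RNA of RNase P, had 0.159 and 0.189 CPM in NMuMG against 2151 and 2054 in Empty vector, and 3.56 and 0.462 in E1KD against 1862 and 2803 in E1KD SCR. Rny1, a Y RNA bound by the Ro protein, was listed at 0 in the 4 lower libraries and had 35.9 and 34.05 CPM in Empty vector and 30.95 and 25.7 CPM in E1KD SCR, at least 637-fold and 494-fold higher than 3 reads allow. Rny3 was at least 502-fold and 367-fold higher by the same measure. Vaultrc5, the vault RNA, reached only 5.33 and 5.27 CPM in Empty vector and 6.0 and 6.23 CPM in E1KD SCR, against at most 0.591 CPM elsewhere. All 11 listed genes passed the filter and were called higher in both pairs, with log2 fold changes from 2.66 to 12.8 in the NMuMG pair. Most could pass the filter only through the vector libraries, so this count is a description.

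Rmrp, the RNA of RNase MRP, is annotated as a ribozyme and again as an overlapping lincRNA, between which reads could be split. The ribozyme entry had 0.00585 and 0.145 CPM in NMuMG against 1069 and 1030.1 in Empty vector, and 3.96 and 0.425 in E1KD against 1133 and 1474 in E1KD SCR, and the lincRNA entry 0.366 and 0.0246 CPM in NMuMG against 435 and 443 in Empty vector, and 4.34 and 0.499 in E1KD against 373 and 662 in E1KD SCR. Bc1, a brain-enriched RNA of RNA polymerase III with an internal A-rich stretch, was the exception in size. It was listed at 0 in NMuMG and had 11.9 and 13.1 CPM in Empty vector, but 81.5 and 79.3 CPM in E1KD SCR against 0.0984 and 0 CPM in E1KD. The difference between the pairs was 2.53 on the log2 scale (SE 0.131, adjusted p = 8.3e-09, limma). Terc, the telomerase RNA, was at most 0.0394 CPM in the lower libraries, 0.918 and 1.45 CPM in Empty vector and 0.717 and 1.25 CPM in E1KD SCR, and it passed the test only in the NMuMG pair (log2 fold change 1.06 against 0.95). In the NMuMG pair it was 0.94 with equal sums. For Terc the difference between the pairs was -0.12 (adjusted p = 0.741, limma).

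The U-type snRNAs and the U3 snoRNA followed. U3 is annotated in several near-identical copies, so the division of reads between them is uncertain. Rnu3a had 0.0706 and 0.0334 CPM in NMuMG against 119 and 121 in Empty vector, and 2.02 and 0.0491 in E1KD against 169 and 157 in E1KD SCR. Rnu2-10, a U2 gene of the major spliceosome, had 0 and 0.0566 CPM in NMuMG against 85.4 and 85.03 in Empty vector, and 1.79 and 0.166 in E1KD against 98.4 and 98.9 in E1KD SCR. Both groups lie apart in each pair, and in both genes E1KD replicate 1 is above the other 3 low libraries. Of 23 listed genes 18 passed the filter, and all 18 were called higher in both pairs. Many of these 18 are entries of U3, since Rnu3a and Rnu3b1 to Rnu3b4 are each entered more than once. The 18 are therefore not separate RNAs. Of the whole snRNA gene type, 49 of 50 tested genes were called higher in both pairs and 0 lower, against 15.5% of all genes higher. Most of these genes could pass the filter only through the vector libraries, so both counts are descriptions.

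Snora73a, an H/ACA snoRNA also known as U17 that acts in 18S rRNA processing, differed most of the snoRNAs and Cajal body RNAs named. It had at most 0.501 CPM in the libraries without an added vector, 327 and 358 CPM in Empty vector and 367 and 488 CPM in E1KD SCR. Its log2 fold changes were 7.95 (SE 0.153, adjusted p = 5.4e-15, limma) and 8.48 (SE 0.153, adjusted p = 3.0e-15). Snora73b and Snora78 were at or near 0 in the lower libraries and had 115 and 129 and 25.7 and 24.9 CPM in Empty vector. Among C/D snoRNAs, Snord17 had 0.195 and 0.0943 CPM in NMuMG against 35.2 and 39.03 in Empty vector, and 0.728 and 0.259 in E1KD against 29.6 and 32.4 in E1KD SCR, and Snord22 was listed at 0 in the 4 lower libraries against 24.6 and 22.4 CPM in Empty vector and 16.1 and 13.5 CPM in E1KD SCR. Most RNAs of these lists were too low to test: 16 of 41 H/ACA, 11 of 103 C/D and 6 of 10 Cajal body RNAs passed the filter. Of these, 12, 9 and 5 were called higher in both pairs. The counts are again descriptions, since most passed the filter through the vector libraries alone. Scarna13 and Scarna2, which guide modification of snRNAs in Cajal bodies, had 48.6 and 51.6 and 32.1 and 38.5 CPM in Empty vector, and at most 0.315 and 0.0394 CPM in the libraries without an added vector. The summed C/D list was 542 times higher in the NMuMG pair and 100.2 times higher in the E1KD pair, ratios over sums near 0 that were 881 without NMuMG replicate 1, 253 without E1KD replicate 1 and 62.5 without E1KD replicate 2.

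The genes that host snoRNAs in their introns moved less than the snoRNAs. Gas5 had 115 and 109.99 CPM in NMuMG against 186 and 196 in Empty vector, and 153 and 124 in E1KD against 241 and 223 in E1KD SCR, and was called in neither pair. Snhg1, whose introns hold several C/D snoRNAs, had 92.2 and 91.4 CPM in NMuMG and 199.6 and 208 CPM in Empty vector, and its log2 fold changes were 1.14 and 1.23 (adjusted p = 1.3e-08 and 5.1e-09, limma). Both were under 1 with equal sums (0.67 and 0.96). Of 12 host genes tested, 3 were called higher in both pairs and 0 lower, against 15.5% and 13% of all genes, which does not set the list apart. The other pair of higher genes, Snhg3 (log2 fold changes 2.22 and 1.83) and Snhg9 (1.32 and 1.91), hold Snora73a and Snora73b (Snhg3) and Snora78 (Snhg9) in the annotation.

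The gene type miRNA was near 0 without an added vector, with sums of 0.0721 and 0.135 CPM in NMuMG and 0.292 and 0 CPM in E1KD, and reached 10787 and 11284 CPM in Empty vector and 10114 and 13182 CPM in E1KD SCR. Nearly all of this lay in 6 entries that overlap other genes, which held 99.1% to 99.3% of the type in the 4 vector libraries. Gm47295 shares 77 of its 79 bases with the 7SL gene Rn7s1, Gm47299 shares 77 of 80 with Rn7s2, Gm47304 lies within Rn7s6, and Gm24105 lies in an entry of type misc_RNA. Gm26377 and Gm22133 lie within exons of Eef1a1, an elongation factor, and Ftl1, the ferritin light chain. The 1223 entries named Mir, with recognised microRNA hairpins, summed to at most 0.0394 CPM without an added vector and to 26 to 32.2 CPM with one.

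Mitochondrial RNA divided by class. The 16S rRNA, mt-Rnr2, was the larger part of the rRNA sum, and the 12S rRNA, mt-Rnr1, had 282 and 277 CPM in NMuMG against 5043 and 4955 in Empty vector, and 306 and 262 in E1KD against 5460.1 and 5158 in E1KD SCR. The log2 fold changes of mt-Rnr1 were 4.16 and 4.22 and those of mt-Rnr2 8.60 and 8.54 (adjusted p of at most 7.0e-15, limma). Of 22 mitochondrial tRNAs all were listed at 0 in the 4 lower libraries and 13 were above 0 in vector libraries. The leucine tRNA mt-Tl1 had 7.34 and 5.76 CPM in Empty vector and 6.89 and 5.88 CPM in E1KD SCR. The mRNAs did not rise as a group. Of 13, mt-Nd3 was called higher in both pairs (though 0.60 in the NMuMG pair with equal sums). Called lower in both were mt-Nd4, mt-Nd4l, mt-Nd5, mt-Nd6 and mt-Cytb, against 15.5% of all genes higher and 13% lower. The summed list had ratios of 0.639 and 0.789. The cytochrome oxidase mRNA mt-Co1 had 11188 and 10848 CPM in NMuMG against 6989.9 and 6998 in Empty vector, and 8433 and 7605 in E1KD against 6784 and 6201 in E1KD SCR, with log2 fold changes of -0.66 and -0.30 (adjusted p = 1.3e-06 and 0.00165, limma) that were under the limit of 1 in size, but -1.13 in the NMuMG pair with equal sums. mt-Nd6, the sole mRNA of the light strand, whose transcript lacks a poly(A) tail, had 203 and 195 CPM in NMuMG against 24.7 and 23.3 in Empty vector, and 312 and 243 in E1KD against 15.96 and 19.7 in E1KD SCR. Its log2 fold changes were -3.0 (SE 0.152) and -3.88 (SE 0.152), with adjusted p = 1.6e-10 and 8.0e-12 (limma), so it was lower in the vector libraries, where the mitochondrial rRNAs were higher. mt-Nd6 overlaps mt-Nd5 by 14 bases on the other strand, and without a stated strand setting, reads of a gene and its antisense partner cannot be told apart.

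Nuclear entries that share sequence with mitochondrial genes did not all move with them. RP23-407K8.3 on chromosome 2, 59.6% of whose 21-base words also occur in mt-Co1, had 32.7 and 34.3 CPM in NMuMG against 1569 and 1585 in Empty vector, and 102 and 21.6 in E1KD against 1480.2 and 1427 in E1KD SCR. ENSMUSG00000096887.2 on chromosome 6, typed as protein-coding, shares 17.9% of such words with mt-Rnr2. It was listed at 0 in the 4 lower libraries and had 1433 and 1532 CPM in Empty vector and 1464 and 1199.96 CPM in E1KD SCR, the largest rise called among protein-coding genes. RP23-8J15.2 and RP23-8J15.4 on chromosome 1, which share all such words with mt-Co2 and mt-Co3, were called in neither pair, as mt-Co2 and mt-Co3 were not.

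The nuclear ribosomal RNA region gave entries that moved in opposite directions on its 2 strands. RP23-81C12.1, a lincRNA entry there, had 44.8 and 50.97 CPM in NMuMG against 1441 and 1531 in Empty vector, and 147 and 73.9 in E1KD against 1453 and 2726 in E1KD SCR, and RP23-81C12.3 beside it was called higher in both pairs as well (log2 fold changes 3.50 and 2.99). Rn18s-rs5, the only tested gene of type rRNA, is annotated on the opposite strand and had 589 and 704 CPM in NMuMG against 88.1 and 60.6 in Empty vector, and 4167 and 1433 in E1KD against 73.1 and 88.6 in E1KD SCR. It fell, with log2 fold changes of -3.12 and -4.91 (SE 0.488, adjusted p = 3.7e-05 and 3.3e-07, limma). Lars2, a mitochondrial leucyl-tRNA synthetase whose gene carries a stretch resembling rRNA, had 159 and 158 CPM in NMuMG against 3.23 and 3.11 in Empty vector, and 503 and 195 in E1KD against 3.42 and 3.1 in E1KD SCR, among the largest falls of protein-coding genes. In Rn18s-rs5 and Lars2, E1KD replicate 1 was the highest library by more than 2-fold.

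The replication-dependent histone genes were the protein-coding class that stood out. Their sum was 122 and 123 CPM in NMuMG against 3700.5 and 3727 in Empty vector, and 71.2 and 58 in E1KD against 4559 and 6218 in E1KD SCR, ratios of 30.3 and 83.4. Hist2h2bb, a core histone H2B gene, had 0.172 and 0.104 CPM in NMuMG against 282 and 308 in Empty vector, and 0.511 and 0.0162 in E1KD against 424 and 443 in E1KD SCR. Hist1h1d, a linker histone gene, had 1.22 and 1.21 CPM in NMuMG against 218 and 226 in Empty vector, and 0.63 and 0.407 in E1KD against 260.5 and 314 in E1KD SCR. Hist1h1e had 0.661 and 0.565 CPM in NMuMG against 223 and 231 in Empty vector, and 0.874 and 0.592 in E1KD against 267 and 297 in E1KD SCR. In each gene the vector libraries lie more than 100-fold above the matched libraries, with log2 fold changes of 8.02 and 8.45 (SE 0.133) for Hist2h2bb, 6.65 and 7.57 for Hist1h1d, and 7.14 and 7.36 for Hist1h1e. The largest adjusted p of these 6 values was 1.9e-15 (limma). Of 69 genes, 62 were under 2 CPM in all 4 libraries without an added vector and 63 were at 5 CPM or more in all 4 with one, and the vector libraries all exceeded the matched ones in both pairs for 67. Of the 67 genes that passed the filter, 65 were called higher in both pairs and 0 lower, against 15.5% of all genes tested, but most passed through the vector libraries alone. Hist1h1t, the testis linker histone, stayed under the filter, with at most 0.13 CPM.

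A few histone genes had counts in both kinds of library, and they are mostly those with a cleavage signal near an annotated end. Hist1h1c, whose stem-loop and AATAAA are shown above, had 40.4 and 41.4 CPM in NMuMG against 181 and 185 in Empty vector. In the E1KD pair it had 13.03 and 12.6 CPM in E1KD against 194 and 237 in E1KD SCR. Hist2h2be, with AATAAA near its end, had 27.7 and 26.1 CPM in NMuMG against 21.6 and 20.6 in Empty vector, and 6.75 and 5.78 in E1KD against 10.04 and 10.6 in E1KD SCR, and was called in neither pair. Hist3h2a had 15.9 and 16.1 CPM in NMuMG against 57.1 and 59.5 in Empty vector, and 8.66 and 9.32 in E1KD against 45.6 and 63.04 in E1KD SCR. These genes led the list in the libraries without an added vector (CPM, not per length), at a mean of 26.8, 16.6 and 12.5 CPM, and the next were Hist1h2bc and Hist1h4i, without the signal, at 9.45 and 5.05 CPM. Of the summed CPM of these histones, the 15 genes with the signal held 75.1% and 73.6% in NMuMG against 21.6% and 21.3% in Empty vector, and 51.3% and 57.3% in E1KD against 19.3% and 19.8% in E1KD SCR. Their sum was 8.76 times higher in the NMuMG pair and 30.2 times in the E1KD pair, whereas that of the 54 genes without it was 92.8 and 146 times higher. Medians of the tested genes with and without the signal, 4.7 and 4.75 on the log2 scale in the NMuMG pair, lay close together, and Hist1h1c, Hist2h2be and Hist3h2a made up most of the NMuMG sum of the genes with the signal.

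**Figure D2:**
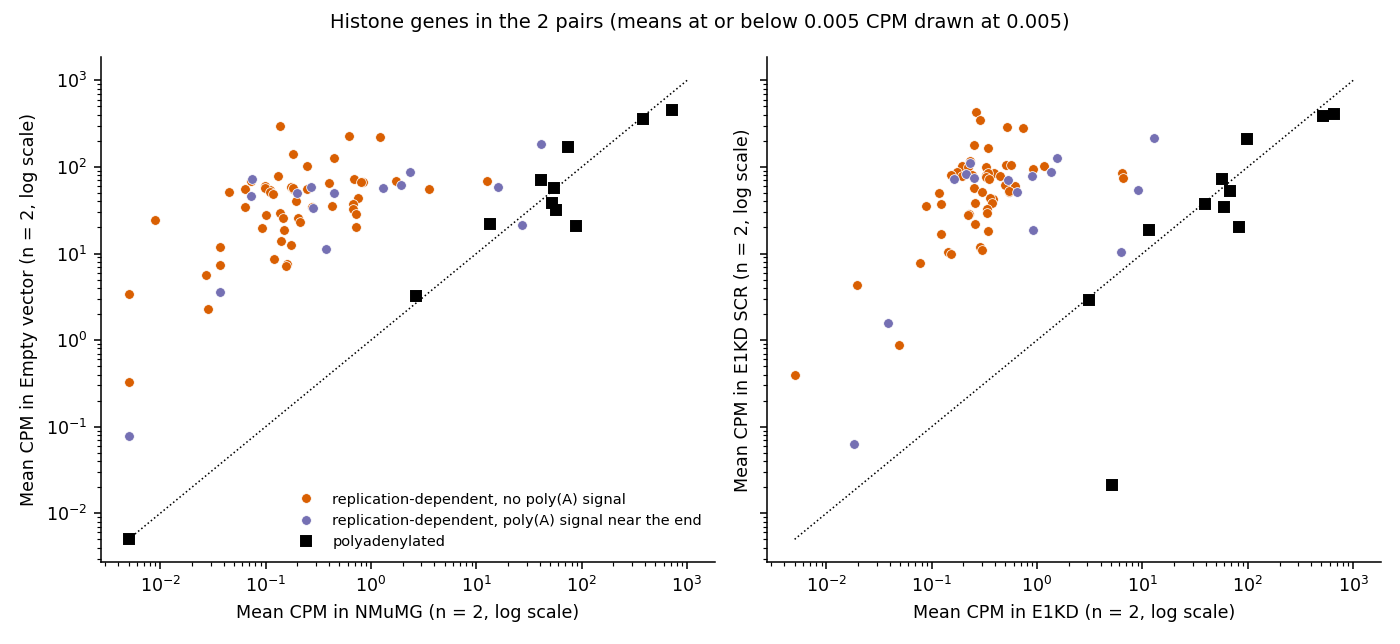
Mean CPM of histone genes with an added vector (vertical log axis) against without (horizontal log axis), NMuMG pair left and E1KD pair right, 1 point a gene, the dotted line marking equality. Replication-dependent genes lie far above the line, with a few of those carrying the poly(A) signal nearer to it, and most of the 11 polyadenylated histones lie along it.

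The histone genes with polyadenylated mRNA did not follow. H1f0, the replacement linker histone, had 721 and 726 CPM in NMuMG against 462 and 448 in Empty vector, and 681 and 624 in E1KD against 409 and 401 in E1KD SCR, and H3f3b, a gene of histone H3.3, had 383 and 377 CPM in NMuMG against 366 and 349 in Empty vector, and 584 and 446 in E1KD against 384 and 384 in E1KD SCR, and neither was called in either pair. H2afz, the gene of H2A.Z, was called higher in both pairs (log2 fold changes 1.17 and 1.10, adjusted p = 7.4e-07 and 1.4e-06, limma), but under 1 in both with equal sums (0.70 and 0.83), and it has AATAAA at its end. H2afj was called lower in both (-2.01 and -1.98). H1fx, an intronless linker histone gene, was listed at 0 in NMuMG and Empty vector, had 5.52 and 4.71 CPM in E1KD and 0.0271 and 0.0159 CPM in E1KD SCR, and fell in the E1KD pair, with a difference between the pairs of -2.58 (adjusted p = 2.4e-10, limma). Over all 11 genes the summed ratios were 0.823 and 0.777.

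Long nuclear RNAs went both ways. Malat1, an abundant nuclear RNA whose end is a triple helix in place of a poly(A) tail, had 2058 and 1764 CPM in NMuMG against 5229.8 and 4789 in Empty vector, and 885 and 881 in E1KD against 2072 and 1922 in E1KD SCR. Its log2 fold changes of 1.39 and 1.17 were each called (adjusted p = 3.5e-08 and 2.2e-07, limma), though they were under 1 when libraries were scaled to equal sums. Neat1, the scaffold of paraspeckles, had 1734 and 1712 CPM in NMuMG against 328 and 313 in Empty vector, and 794 and 722 in E1KD against 144 and 149 in E1KD SCR, and Xist, the RNA that coats the inactive X chromosome, had 970.1 and 971 CPM in NMuMG against 89.6 and 74.2 in Empty vector, and 857 and 758 in E1KD against 265 and 263 in E1KD SCR. Both were lower in every vector library, with log2 fold changes of -2.42 and -2.36 for Neat1 and -3.56 and -1.61 for Xist (adjusted p of at most 5.5e-10, limma). Kcnq1ot1, the imprinted antisense RNA of the Kcnq1 locus, had 17.1 and 17.8 CPM in NMuMG against 63.7 and 50.2 in Empty vector, and 11.4 and 10.9 in E1KD against 67.9 and 67.03 in E1KD SCR, and Lncpint was the third gene called higher in both pairs (2.12 and 2.68). Tug1 was called in neither pair (0.20 and 0.37). Of the 12 listed genes tested, 3 were called higher and 2 lower in both pairs, near the 15.5% and 13% of all genes.

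Reads divided differently between genes and their processed pseudogenes. The 79 ribosomal protein genes with an assigned copy summed to 6347 and 6389.6 CPM in NMuMG against 15563 and 16397 in Empty vector, and 12434 and 6445 in E1KD against 15750.1 and 16178 in E1KD SCR, ratios of 2.51 and 1.69. Their 893 processed pseudogenes summed to 43229 and 43037 CPM in NMuMG against 26001 and 27546 in Empty vector, and 50135 and 41667 in E1KD against 26210.1 and 26899 in E1KD SCR, ratios of 0.621 and 0.579. The copies thus held 87.2% and 87.1% of the joint sum in NMuMG, 62.6% and 62.7% in Empty vector, 80.1% and 86.6% in E1KD and 62.5% and 62.4% in E1KD SCR. Genes and copies together had ratios of 0.864 and 0.768. The fall of the copies is one of their sum, not of most copies. Of 779 copies tested, 518 were called higher in both pairs and 89 lower, against 15.5% and 13% of all genes. These counts are a description, since the filter favours low copies that are high in 1 kind of library. A copy was assigned to a gene when at least 20% of its 21-base words occurred in that gene's transcripts, which was so for 3363 of 6457 pseudogenes above 0. How the authors' counting divided reads between a gene and its copies was not tested, and each such gene is uncertain on its own.

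Several single genes show the same division, and others do not. Eif4a1, an RNA helicase of translation initiation, had 67.97 and 66.6 CPM in NMuMG against 309 and 329 in Empty vector. In the E1KD pair it had 241 and 95.6 CPM in E1KD against 479.6 and 477 in E1KD SCR. The sum of its 2 copies went the other way, by ratios of 0.472 and 0.415, but 1 copy was called higher in both pairs and 1 lower. Rpl5, a protein of the large ribosomal subunit, had 73.2 and 70.7 CPM in NMuMG against 309 and 331 in Empty vector, and 157 and 65.8 in E1KD against 304 and 284 in E1KD SCR. Rpl24 had 3.38 and 3.43 CPM in NMuMG against 109.6 and 114 in Empty vector, and 13.5 and 3.4 in E1KD against 97.02 and 96.7 in E1KD SCR. Among the largest genes of the type processed_pseudogene, RP23-151M8.1, a copy of Eef1a1, had 4119 and 4179 CPM in NMuMG against 1366 and 1446 in Empty vector, and 4542 and 4346 in E1KD against 1404 and 1322 in E1KD SCR, and RP24-324L19.3, a copy of the glycolytic gene Pkm, had 2343 and 2362 CPM in NMuMG against 506 and 582 in Empty vector, and 2183 and 2401 in E1KD against 532 and 569.7 in E1KD SCR. Both fell, with log2 fold changes of -1.56 and -1.70 for RP23-151M8.1 and -2.11 and -2.05 for RP24-324L19.3 (adjusted p of at most 1.3e-11, limma). Eef1a1 and Pkm themselves were called in neither pair. Of 13 tested copies of Eef1a1, 10 were called higher in both pairs and 1 lower, and of 6 of Pkm, 4 and 2. For Rpl5, 4 of 6 tested copies were called higher in both pairs and 1 lower, though their sum had ratios of 0.660 and 0.663. Over all genes these shares were 15.5% and 13%. Of 83 ribosomal protein genes tested, 52 were called higher in both pairs and 3 lower (Rps2, Rps3a2 and Rps12l1), against 15.5% and 13% of all genes. With libraries scaled to equal sums these numbers were 41 and 4, and the number higher was 64 without E1KD replicate 1 and 34 without E1KD replicate 2. Rps2, a protein of the small subunit with 63 assigned copies, had 397 and 485 CPM in NMuMG against 110.03 and 120.3 in Empty vector, and 665 and 526 in E1KD against 110.3 and 119.9 in E1KD SCR, against the direction of the list. Actg1, a cytoplasmic actin gene, had lower sums in both gene and copies, with ratios of 0.517 and 0.299 for the gene and 0.587 and 0.362 for the copies. The glycolytic gene Gapdh had ratios of 0.699 and 0.701, and the sum of its 78 copies 0.426 and 0.435.

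**Figure D3:**
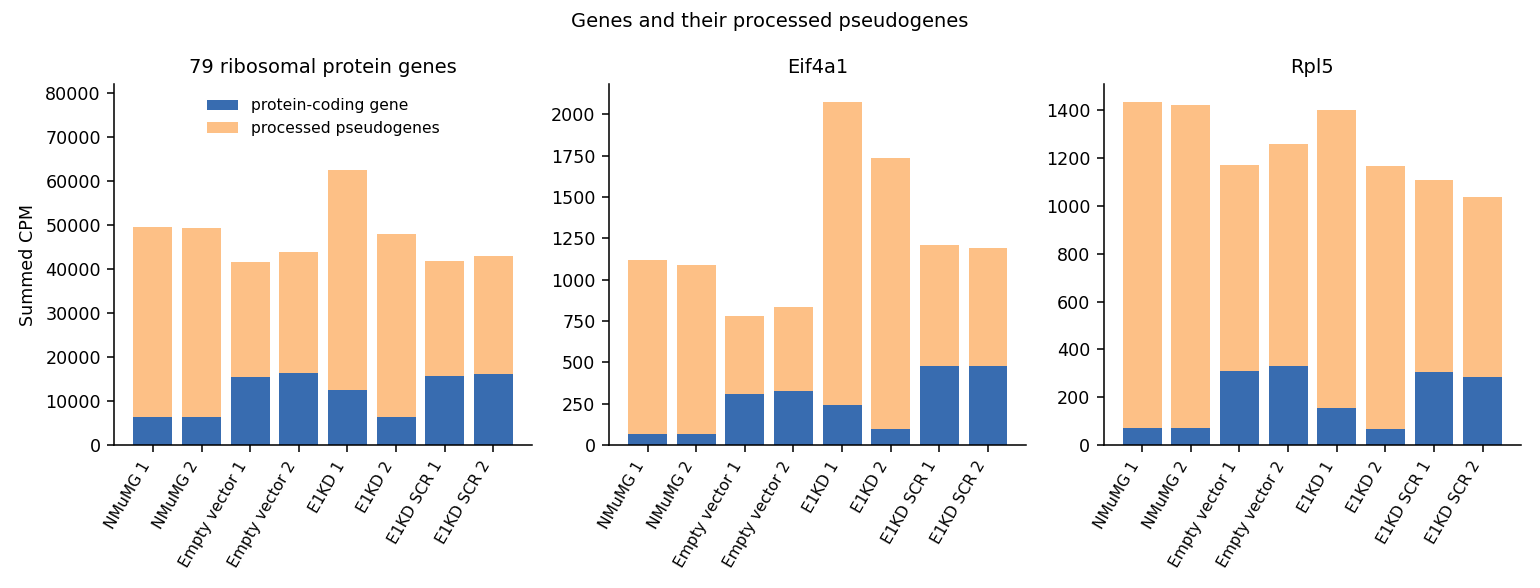
Summed CPM (vertical axis, from 0) in each of the 8 libraries, stacked as protein-coding genes (blue) and their processed pseudogenes (orange), for 79 ribosomal protein genes, Eif4a1 and Rpl5. The blue share is larger in all 4 libraries with an added vector, and E1KD 1 has the tallest bar among the ribosomal proteins.

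Processed pseudogenes as a whole were 2470 copies of 1208 other genes and the 893 above, among those assigned. Ratios of the summed copies of the other genes were 0.488 and 0.453, and those of the genes themselves 1.07 and 0.918. Of 1912 such copies tested, 450 were called higher in both pairs and 656 lower. The calls varied with level, where 15.5% of all genes were called higher in both pairs and 13% lower. Of 1257 tested pseudogenes with a mean under 3 CPM over the 8 libraries, 598 were called higher in both pairs and 134 lower, whereas of 223 with a mean of at least 100 CPM, 9 were called higher and 147 lower. A pseudogene of low mean had to reach 1 CPM in 2 libraries to be tested, which favours those high in 1 kind of library.

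Protein-coding genes other than these histones were ordered by exon length and base composition. Where the longest exon had at most 250 bases, the median log2 fold change was 1.33 in the NMuMG pair and 1.24 in the E1KD pair (46 genes). Of these, 50% were called higher in both against 9.41% of all 11647 such genes. Their median level was 3.64 CPM against 17.5 CPM for all such genes, and the filter on low values favours low genes that are high in 1 kind of library. Where it exceeded 5000 bases the medians were -0.08 and -0.19 (884 genes). Rpl38, whose longest exon has 291 bases, had 0.0177 and 0 CPM in NMuMG against 65.5 and 69.8 in Empty vector, and 0.256 and 0.0185 in E1KD against 76.9 and 73.8 in E1KD SCR. Rps29, with 403 bases, had 0.531 and 0.792 CPM in NMuMG against 76.4 and 72.4 in Empty vector, and 1.61 and 0.776 in E1KD against 79.6 and 96.4 in E1KD SCR. Both were near absent without an added vector, and both are ribosomal protein genes, a class that was not set aside in the bins. By GC content of the longest transcript, medians fell from 0.72 and 0.63 at 40% or less (760 genes) to -0.49 and -0.77 above 60% (448 genes). Atn1, a corepressor gene whose transcript has 62.01% GC, had 45.6 and 47.5 CPM in NMuMG against 3.0 and 2.31 in Empty vector, and 72.5 and 70.6 in E1KD against 2.35 and 3.36 in E1KD SCR. Kmt2d, a histone methyltransferase gene of 58.4% GC, fell, with log2 fold changes of -2.81 and -2.88. Polr2a, the gene of the largest subunit of RNA polymerase II, fell, with log2 fold changes of -3.21 and -3.79 at a middle GC of 52.4%. Both trends remained within strata. With a longest exon over 1000 bases, medians in the NMuMG pair ran from 0.71 to -0.69 over the GC bins. At 45 to 50% GC they ran from 1.04 (17 genes) to -0.27 over the exon bins, with the highest, 1.20, at 251 to 400 bases.

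**Figure D4:**
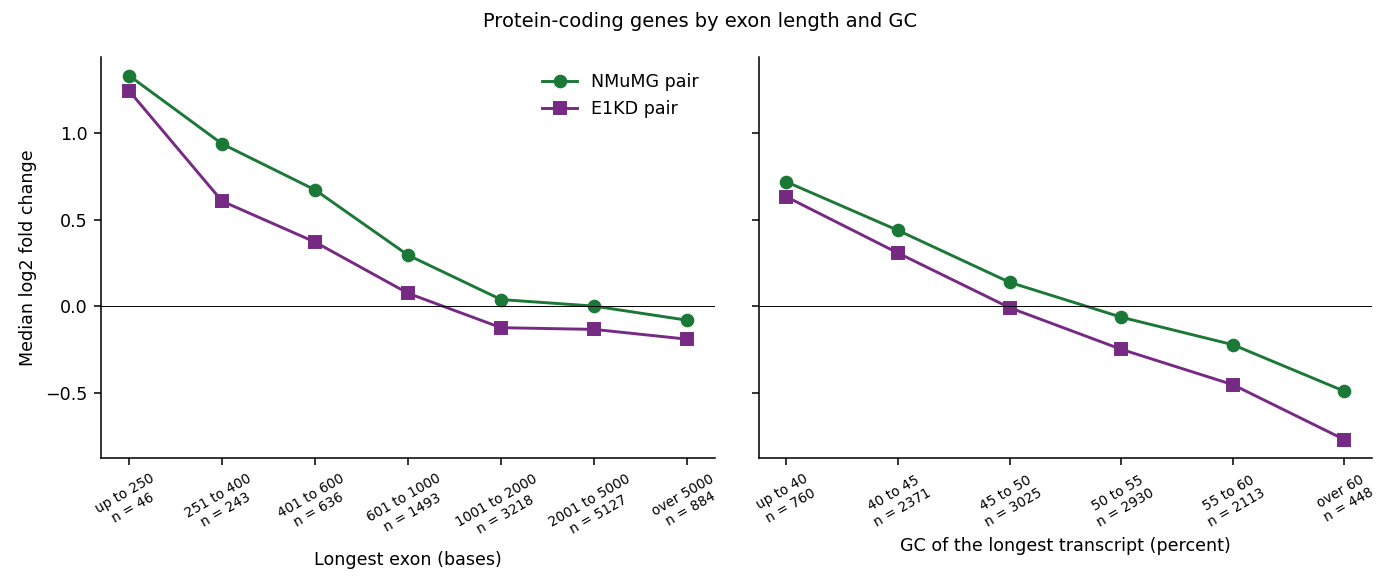
Median log2 fold change (vertical axis) of protein-coding genes other than replication-dependent histones, in bins of the longest exon (left, bases) and of GC content (right, percent), with the number of genes under each bin. In both pairs the medians fall with exon length, from 1.33 and 1.24 to below 0, and with GC.

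Genes of a single exon were lower in the vector libraries. The 370 tested protein-coding genes with 1 exon had medians of -0.51 and -0.59, and 23.5% were called lower in both pairs against 6.81% of genes with more. Of 21 tested genes on a list of genes known as intronless, 6 were called lower in both (Pcbp1, Junb, Jund, Ier2, Cebpd and Fzd2) and 0 higher, against 13% and 15.5% of all genes. Over its annotated transcripts Junb has 3 exons here, and Jund was not matched to the annotation. Junb, an immediate early transcription factor, had 153 and 179 CPM in NMuMG against 78.1 and 75.5 in Empty vector, and 229 and 220.2 in E1KD against 51.2 and 81.1 in E1KD SCR, and in the NMuMG pair its log2 fold change of -1.10 was -0.99 without NMuMG replicate 2. Ier2, another immediate early gene, had 25.1 and 27.1 CPM in NMuMG against 8.89 and 8.99 in Empty vector, and 42.5 and 36.2 in E1KD against 11.4 and 14.2 in E1KD SCR. Pcbp1 itself, intronless, fell in the NMuMG pair, with a log2 fold change of -3.17 (SE 0.0848, adjusted p = 1.3e-13, limma) although Empty vector cells carry no labelled shRNA to it, and in the E1KD pair (-1.91).

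Genes with an opposite-strand partner made up most of the genes that were near 0 in the vector libraries alone. In all, 90 genes had at least 5 CPM in all 4 libraries without an added vector and under 0.5 CPM in all 4 with one. Of these, 62 (68.9%) overlapped an exon of a gene on the other strand, against 26.2% of 16902 genes compared, and the partner had more CPM than the gene in the vector libraries for 61. In the reverse set, 355 genes, 27 (7.61%) had such an overlap. Both sets were chosen on these values, so the shares are a description. The count of 61 was largely fixed by choosing genes under 0.5 CPM in the vector libraries. Nphs1, known as a kidney podocyte gene, had 119.6 and 131 CPM in NMuMG against 0.0411 and 0.0724 in Empty vector, and 147 and 135 in E1KD against 0.0677 and 0.0318 in E1KD SCR. Its exons lie opposite RP24-471H15.4, a copy of Rps12, which had 66.2 and 64.00 CPM in NMuMG against 82.6 and 85.9 in Empty vector, and 172 and 66.7 in E1KD against 98.02 and 110.1 in E1KD SCR. Gadl1 had 58.8 and 61.4 CPM in NMuMG against 0.0685 and 0.0145 in Empty vector, and 73.3 and 51.1 in E1KD against 0.0271 and 0 in E1KD SCR, opposite AC133169.2, a copy of Rpl24 with 255 and 249.6 CPM in NMuMG and 163 and 172 CPM in Empty vector. Gm26825, a lincRNA opposite AC092404.2, a copy of the chaperone gene Hspa8, had 739.6 and 701 CPM in NMuMG against 0.384 and 0.319 in Empty vector, and 534 and 827 in E1KD against 0.42 and 0.604 in E1KD SCR. Gm20721 had 91.7 and 69.5 CPM in NMuMG against 0.137 and 0.13 in Empty vector, and 72.1 and 42.2 in E1KD against 0.0406 and 0.0635 in E1KD SCR, opposite Gnas, and Fam221b had 125 and 123 CPM in NMuMG against 0.0822 and 0.159 in Empty vector, and 66.5 and 69.6 in E1KD against 0.0271 and 0.0794 in E1KD SCR, opposite RP23-191F22.11, a copy of Serf2. Each of these 5 genes was called lower in both pairs, with log2 fold changes between -9.06 (Gm26825) and -5.74 (Gm20721), and the partners named here were called in neither pair apart from Gnas, with log2 fold changes of 2.04 and 1.06, the second 0.71 without E1KD replicate 2. Of the 304 antisense genes tested, 91 (29.9%) were called lower in both pairs and 8 (2.63%) higher, against 13% and 15.5% of all genes, and the type's summed ratios were 0.543 and 0.494.

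Further noncoding entries were among the largest falls. RP23-233O21.5, a processed transcript, had 179 and 187 CPM in NMuMG against 0.425 and 0.406 in Empty vector, and 64.8 and 148 in E1KD against 0.393 and 0.191 in E1KD SCR. RP23-218K15.7, opposite Ftl1, had 85.98 and 92.5 CPM in NMuMG against 0.0548 and 0.0724 in Empty vector, and 17.6 and 77.4 in E1KD against 0.0541 and 0.0477 in E1KD SCR, where E1KD replicate 1 is the lower of its group. RP23-453N3.4 fell, with log2 fold changes of -6.0 and -4.66.

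Some cell cycle genes were called higher, in a number that varied with the scaling and with the E1KD replicate kept. Of 21 proliferation genes, 7 were called higher in both pairs (Cdk1, Top2a, Bub1, Ccna2, Ccne2, Mcm6 and Mcm7) and 0 lower, against 15.5% of all genes higher. With libraries scaled to equal sums 4 were called higher and 1 lower, and without E1KD replicate 2 the number higher was 3. Top2a, the topoisomerase of mitosis, had 109 and 109 CPM in NMuMG against 489 and 535 in Empty vector, and 248 and 125 in E1KD against 712 and 668 in E1KD SCR. Bub1, a spindle checkpoint kinase, had 10.3 and 10.4 CPM in NMuMG against 54.5 and 59.8 in Empty vector, and 20.1 and 8.22 in E1KD against 66.96 and 59.3 in E1KD SCR. Mki67, another marker of cycling cells, had 514 and 505 CPM in NMuMG against 495 and 511 in Empty vector, and 618 and 539 in E1KD against 809.9 and 741 in E1KD SCR, and was called in neither pair (-0.02 and 0.42), nor was Pcna (0.23 and 0.38).

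Few members of the other gene groups were called in both pairs, where 15.5% of all genes were called higher in both and 13% lower. In lists this short, such counts do not set a group apart. Of 12 housekeeping mRNAs, Pgk1 alone was called higher in both pairs (1.13 and 1.12), with 0 lower. With equal sums 0 were called higher, and without E1KD replicate 1 the number was 4. Actb rose in the NMuMG pair, from 810.3 and 797 to 2384 and 2348 CPM (log2 fold change 1.56, adjusted p = 4.6e-08, limma), while in the E1KD pair its 1806 and 1219 and 2539 and 2686 CPM gave 0.82, and 1.10 without E1KD replicate 1. Of 10 interferon-stimulated genes tested, 0 were called in both pairs. Of 11 targets of ATF4, the factor of the amino acid response, Asns was called higher (1.98 and 1.48) and Slc7a5 lower (-1.06 and -1.91) in both pairs, the latter -0.94 in the NMuMG pair without Empty vector replicate 2. Of 7 epithelial markers tested 0 were called in both pairs. Cdh1, the gene of E-cadherin, had 232 and 237 CPM in NMuMG against 127 and 125 in Empty vector, and 205 and 149 in E1KD against 101 and 104 in E1KD SCR, with log2 fold changes of -0.89 and -0.77, which exceeded 1 in size in both pairs with equal sums.

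The pairs differed from each other in fewer genes: 164 (0.959%) were called with a change higher in the E1KD pair and 461 (2.69%) with a change lower there, and the second number was 1627 without E1KD replicate 2, 337 without E1KD replicate 1 and 250 where a mean of at least 5 CPM was required. Mesenchymal markers were among the lower ones, 5 of 9 tested. Fn1, the gene of fibronectin, had 10.8 and 10.5 CPM in NMuMG against 5.9 and 5.03 in Empty vector, and 206 and 119 in E1KD against 19.6 and 21.8 in E1KD SCR, a difference of -2.01 on the log2 scale (SE 0.247, adjusted p = 4.2e-05, limma). Snai1, a repressor of E-cadherin, had 0.23 and 0.321 CPM in NMuMG against 0.0548 and 0.101 in Empty vector, and 4.31 and 3.92 in E1KD against 0.23 and 0.365 in E1KD SCR, and Vim, the gene of vimentin, had 474 and 496 CPM in NMuMG against 559.97 and 599.6 in Empty vector, and 1470.1 and 1122 in E1KD against 619 and 684 in E1KD SCR. Fn1 and Snai1 were called lower in the E1KD pair (-2.86 and -1.98), and Vim was not (-0.98, though -1.25 with equal sums). In the NMuMG pair none of the 3 was called (-0.86, -0.24 and 0.26). Cdh2 and Zeb2 were instead called higher in Empty vector than in NMuMG (1.33 and 1.24), with 0.21 and -0.08 in the E1KD pair, but both were under 1 with equal sums (0.87 and 0.82).

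The largest single differences between the pairs were in noncoding entries. Gm26880, a lincRNA, had 0.0531 and 0.0189 CPM in NMuMG against 0 and 0 in Empty vector, and 414 and 139.8 in E1KD against 0.0947 and 0.0477 in E1KD SCR, a difference of -7.77 (SE 0.43, adjusted p = 1.5e-08, limma), with E1KD replicate 1 the highest by far. RP24-378G4.3 had 0.23 and 0.415 CPM in NMuMG against 0.63 and 0.434 in Empty vector, and 154 and 142 in E1KD against 9.99 and 10.2 in E1KD SCR, and ENSMUSG00000111083.1 had 33.5 and 15.1 CPM in E1KD and at most 0.0377 CPM elsewhere. In the other direction, Apoc2, an apolipoprotein gene, had 2.18 and 2.41 CPM in NMuMG against 0.901 and 0.706 in Empty vector, and 0.583 and 0.486 in E1KD against 10.4 and 11.1 in E1KD SCR, a difference of 3.81 (adjusted p = 3.8e-11, limma). Ehf, an epithelial ETS factor, had 51.2 and 48.9 CPM in NMuMG against 21.2 and 20.1 in Empty vector, and 16.99 and 12.6 in E1KD against 62.5 and 52.9 in E1KD SCR, and was called in opposite directions in the 2 pairs (-1.24 and 1.90). ENSMUSG00000102700.1 had 7.91 and 6.86 CPM in NMuMG and at most 0.157 CPM in the other groups.

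**Figure D5:**
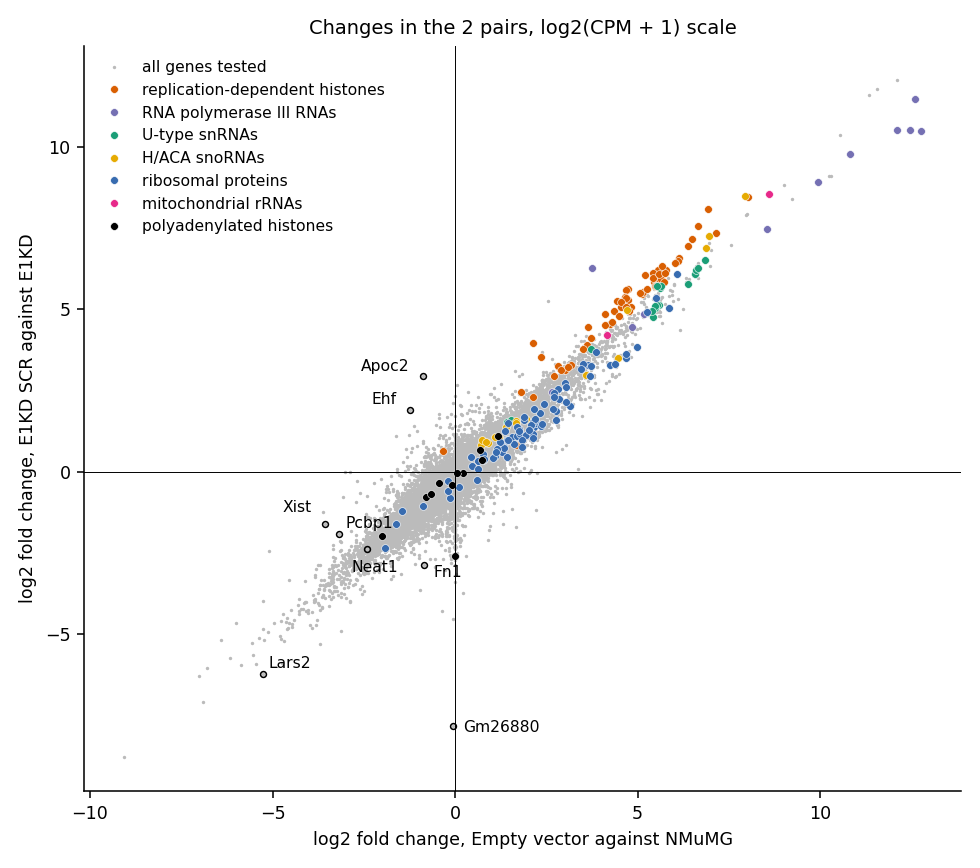
Log2 fold change in the E1KD pair (vertical) against that in the NMuMG pair (horizontal) for the 17106 genes tested, with listed classes in colour. RNA polymerase III RNAs, snRNAs, histones and mitochondrial rRNAs lie mostly at the upper right, polyadenylated histones near the centre apart from H2afz, H2afj and H1fx, and genes such as Gm26880 and Fn1 lie below the diagonal.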

How the data were processed

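Sequencing on an Illumina instrument gave 20 libraries, which the authors aligned with Bowtie2 2.2.5 (version from the submitters' processing notes) and assigned to genes of the M18 mouse annotation by expectation maximization in Partek. The authors deposited CPM for 54986 genes with an offset of 0.0001, which was subtracted. In the 8 libraries, 88.5% to 97.0% of low values were whole multiples of 1 read (within 0.03 reads), so counts were not recovered.

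The log2(CPM + 1) values were modelled in limma 3.58.1 (R 4.3.3) by lmFit and a trended eBayes, with 10 condition means over 20 libraries and 10 residual degrees of freedom. The 17106 genes that reached 1 CPM in 2 or more of the 20 libraries were tested. The added 1 makes fold changes of low genes smaller than their CPM ratios. Calls needed a Benjamini-Hochberg adjusted p under 0.05 over all genes tested and a log2 fold change of at least 1 in size. The contrasts were Empty vector minus NMuMG, E1KD SCR minus E1KD, and the second minus the first. The fit was tested on simulated data. Class sums took every member without a filter. Alternatives were other pseudocounts, filters, scalings and thresholds, a fit of the 8 libraries alone, and leaving out each library.

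Transcript features came from GENCODE M21 on GRCm38, to which 98.4% of genes matched by gene ID. Tables used Python 3.11.15 with numpy 2.4.6 and pandas 2.3.3, figures matplotlib 3.10.9. The groups, gene lists and members were chosen with earlier results of these data known. Named genes are up to 6 members of each list by mean CPM, every member of lists of up to 12, the 5 largest changes shared by both pairs in each direction among protein-coding and among other genes, the 3 largest differences between the pairs in each direction, and up to 3 genes of each gene type. Genes given as examples of exon length, GC content, pseudogene copies, opposite-strand or mitochondrial partners and entries inside genes, and further histone, mitochondrial, intronless, long nuclear, host and proliferation genes, were named after their values were seen. The other 12 libraries entered the fit and are otherwise given as ranges.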

Additional observations from a re-analysis of the deposited data

Results flagged for a closer look

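For the genes given here, the change in the E1KD pair differed from the change in the NMuMG pair by the limma test of that difference, adjusted over all genes tested. Values are the E1KD pair's log2 fold change minus the NMuMG pair's. The value was positive for Apoc2 (3.81), Ehf (3.14), ENSMUSG00000102700.1 (3.01), Bc1 (2.53), Xist (1.95), RP23-453N3.4 (1.34) and Pcbp1 (1.27). It was also positive for the histone genes Hist1h1c (1.83), Hist1h1a (1.18) and Hist1h2bc (1.18), which had fewer CPM in E1KD than in NMuMG or more in E1KD SCR than in Empty vector. For Hist1h1a the adjusted p was above 0.05 with a pseudocount of 0.1 (0.0585), and Hist1h2bc was 0.96 without E1KD SCR replicate 2.

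The value was negative for the entries Gm26880 (-7.77), ENSMUSG00000111083.1 (-4.48) and RP24-378G4.3 (-3.95), and for the linker histone gene H1fx (-2.58). It was negative for the mesenchymal markers Fn1 (-2.01), Snai1 (-1.74), Zeb2 (-1.32), Vim (-1.24) and Cdh2 (-1.12), and for the 7SK RNA gene Rn7sk (-1.59). Rn7sk had 1.42 and 0.811 CPM in NMuMG and 9.0 and 2.22 CPM in E1KD, and its value was -0.77 without E1KD replicate 1. Its adjusted p was 0.0483 (limma), and it was no longer called under 13 of 17 alternatives, with an adjusted p of up to 0.218. Cdh2 was no longer called under 5 of 17. Its value was -0.78 without E1KD replicate 1 and between -0.93 and -0.91 under the 3 scalings, below the limit of 1 in size, and its adjusted p was 0.0618 in a fit of the 8 libraries alone.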

How the results depend on the processing

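Without a filter on low values beyond reads in 2 libraries, with other scalings and with other calls, no called value of a named gene changed sign. With a mean of at least 5 CPM required, fewer genes were tested (11517), and 2227 were called higher in the NMuMG pair, 1679 in the E1KD pair and 1562 in both, with differences between the pairs called higher in 75 genes and lower in 250. A pseudocount of 0.1 gave 372 and 830 such differences. Scaling to equal sums called 4114 genes lower in the NMuMG pair and put 6 gene types at least 2-fold lower in both pairs. Leaving out each of the 8 libraries in turn gave 3543 to 3589 genes higher and 2519 to 2563 lower in the NMuMG pair, 2188 to 3711 higher and 2716 to 3751 lower in the E1KD pair, 2003 to 3145 higher and 2119 to 2269 lower in both, and differences called higher in 158 to 227 genes and lower in 337 to 1627, the last without E1KD replicate 2. Where leaving out a library leaves 1 in its group, that library is assumed to vary like the other groups. Same-numbered libraries did not deviate together from their group means (correlations of -0.0204 and -0.0427). These correlations cannot show whether libraries of the same number were prepared together. With the replicate block in the fit, 2656 genes were called higher and 2225 lower in both pairs. The number called lower for the difference was 458, and no other count of genes changed. Of the named genes' values under these settings, 9232 kept their side of the threshold, 79 lost it and 82 gained it. Leaving out single libraries from the ratios of summed levels, an alternative chosen after seeing the data, moved by over 1.5 times only the C/D snoRNA list among the 8 classes tried. Other classes near 0 without an added vector were not tried, and E1KD replicate 1 exceeded replicate 2 in their sums. These were 44.96 and 1.66 CPM for snRNA, 70.8 and 12.04 CPM for misc_RNA, and 71.8 and 11.01 CPM for the RNA polymerase III list. Ratios of these classes in the E1KD pair thus also depend on which E1KD replicate is kept. CPM with a floor of 3 reads limits what can be said of classes near 0, and 2 libraries a group limit every test.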
